A study of Mus musculus with 6 samples.

Results

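The 10 genes described here are the core of the mammalian circadian clock: Per1, Per2, Per3, Cry1, Cry2, Arntl (also called Bmal1), Clock, Nr1d1, Nr1d2 and Dbp. They were taken by gene name from a table of 41386 genes, and all 10 were found, once each, and passed the filter on low counts. Read counts came from 6 RNA-seq libraries of mouse hippocampus, 3 from mice subjected to middle cerebral artery occlusion lasting 1.5 h with 24 h of reperfusion (I/R) and 3 from sham-operated mice. All mice were C57BL/6 by the labels (C57BL/6J in the study's methods) and 56 days old, with no transgene or other agent named. In the I/R mice, under isoflurane, a filament was passed through the internal carotid artery to where the left middle cerebral artery branches off, and then withdrawn. Sham mice had the same operation without the filament. Per the study's methods the hippocampi came from the operated side of male mice and several were pooled per library, so libraries differ as pools do, not as single mice. Mice were kept in a daily cycle of light and dark. The hour of the day at which the tissue was taken is not given in the sources used here, so the levels cannot be placed on the daily cycle.

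The clock is a feedback loop of transcription. The proteins CLOCK and BMAL1 (from Arntl) bind a short DNA motif called the E-box and switch on the Per and Cry genes, whose proteins return to the nucleus and block CLOCK and BMAL1. The same pair switches on Nr1d1 and Nr1d2, which encode the nuclear receptors REV-ERB alpha and beta. These repress Arntl through a motif that they share with the ROR receptors. Dbp, an output of the loop, encodes an activator of genes that carry a D-box, and it works alongside its relatives TEF and HLF and against the repressor NFIL3. In the hippocampus, as in most tissues, these transcripts cycle over the day, and Per1 is also known to be induced by neuronal activity, stress hormones and cyclic AMP.

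The motifs through which these genes are known to be read are shown first, so that the genes can be read with them below. RefSeq promoter windows of 300 bases (250 before and 50 after a transcription start, build GRCm38.p6) were matched for 9 of the 10 genes in 13 windows. Both strands were searched for the E-box CACGTG, the related CACGTT, the D-box TTANGTAA, the ROR and REV-ERB element TAGGTCA and the cyclic AMP element TGACGTCA. Of all 32851 windows in the table, 7.15%, 4.68%, 2.32%, 2.61% and 1.79% held these motifs. The cyclic AMP element was found in none of the 13 windows. The following stretches run 5′ to 3′ on the gene's strand, with the matched bases in capitals. They come from genes that changed and show the E-box, CACGTT, the D-box and the ROR and REV-ERB element. The E-box of Per1 began 166 bases before the first of its 2 starts (chr11:69098759-69098812, plus strand). Cry1 had a CACGTG 60 bases before its start and a CACGTT, read from the other strand, 79 bases before it (chr10:85185085-85185139, minus strand). Per3 held a pair of D-boxes, 205 and 158 bases before its start (chr4:151044804-151044882, minus strand). The element of Arntl lay 31 bases after the second of its starts (chr7:113207530-113207558, plus strand).
Per1: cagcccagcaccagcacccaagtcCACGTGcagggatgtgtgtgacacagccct
Cry1: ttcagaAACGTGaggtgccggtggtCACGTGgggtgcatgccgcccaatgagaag
Per3: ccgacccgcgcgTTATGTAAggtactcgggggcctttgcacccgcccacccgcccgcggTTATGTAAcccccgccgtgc
Arntl: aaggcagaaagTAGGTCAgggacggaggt
Cry2 and Nr1d1 each held the CACGTT motif, 166 and 28 bases before their starts. In the windows of Clock, Nr1d2 and Dbp none of the 5 motifs was found, which says only that these letters are not in these windows. Some other clock genes described below were searched as well. E-boxes were found for Ciart, which rose, for Tef, which fell, and for Bhlhe41, which did not pass. Timeless, which rose, held a D-box, and Nfil3, which rose, a ROR and REV-ERB element. Hlf, which fell, held the cyclic AMP element. The part of any motif in the changes was not tested.

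The libraries held 37493042 to 44788547 counts, and the lowest count of any clock gene in any library was 542, for Cry1 in sham replicate 3. Markers of neurons and of dentate granule cells were present in every library, and all 6 neuronal markers fell after I/R. Their summed level was 1855 to 3733 CPM (counts per 1000000 counts, scaled with edgeR's trimmed mean of M-values or TMM) in I/R and 6640 to 6983 CPM in sham. All 4 markers of dentate granule cells also fell, from 317.6 to 350.7 CPM in sham to 92.4 to 168.1 CPM in I/R in sum. Of 5 astrocyte markers 3 fell and 1 rose, of 6 microglial markers 3 rose and 2 fell, of 5 oligodendrocyte markers 2 fell, of 5 endothelial markers 4 rose and 1 fell, and of 5 markers of blood myeloid cells all 4 that were tested rose, with Itgam listed at 0 in every library. The summed choroid plexus markers were at 34.7 CPM in I/R replicate 3 and 38.7 CPM in sham replicate 1, against 1592 to 4418 CPM in the other 4 libraries. In bulk tissue, fewer cells of a type and less RNA per cell cannot be told apart, and the part of these shifts in the results below was not tested.

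After I/R, 3 of the 10 clock genes rose (Per1, Cry1 and Arntl), 3 fell (Per3, Dbp and Nr1d2) and 4 did not pass (Per2, Cry2, Clock and Nr1d1). A gene was called at an adjusted p under 0.05 by edgeR's quasi-likelihood test and a fold change over 1.2. By this rule 41.8% of all 18569 genes tested were called, 21.8% higher and 19.9% lower, so the 6 calls among 10 genes are to be read against a tissue in which a large share of all genes changed. The median log2 fold change of the 10 was -0.02, beside 0.03 for all genes tested, and their median absolute log2 fold change was 0.39, beside 0.44. In 7 of the 10 the CPM of the I/R libraries did not overlap those of sham, 3 above and 4 below, whereas 57.4% of all genes tested did not overlap, 29.3% above and 28.1% below. Replicates were 3 per group, and an exact permutation test of 3 libraries against 3 cannot give a p under 0.1, the value that it gave for each of these 7 genes. The set of genes without overlap depends on scaling, with 8 of the 10 under library size only and on the deposited FPKM. On FPKM, Cry2, Clock and Nr1d1 also lay above sham, and Per2 and Nr1d2 overlapped it. The share of all genes was not computed on these scales. With library size only, 6 of the 10 were called, 4 higher and 2 lower, with Clock in and Nr1d2 out, beside 45.0% of all genes. When I/R replicate 1, 2 or 3 was left out, the calls among all genes were 43.0%, 34.7% and 40.8%, and without sham replicate 1, 2 or 3 they were 30.1%, 28.6% and 29.1%, and 4 to 6 of the 10 clock genes were called. With only the 4 libraries rich in choroid plexus counts 4 were called, beside 28.0% of all genes.

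**Figure D1:**
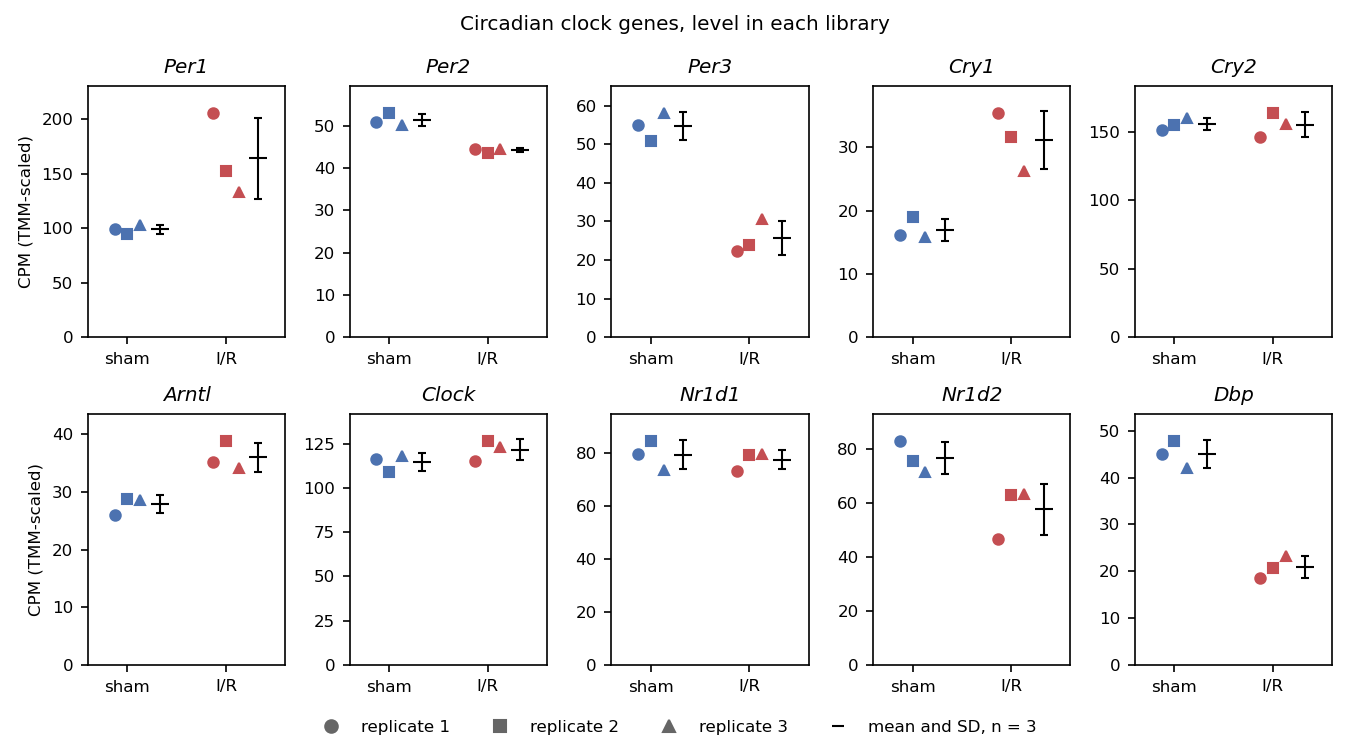
Level of each clock gene in each library. The vertical axis is CPM scaled by TMM and starts at 0, the horizontal axis gives the group, symbols mark replicates, and the bar to the right of each group is the mean with SD (n = 3). The I/R libraries lie above sham for Per1, Cry1 and Arntl and below sham for Per2, Per3, Nr1d2 and Dbp, and overlap sham for Cry2, Clock and Nr1d1. Per2 was short of the adjusted p threshold and of the fold limit, and of the opposite direction with library size only.

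Of the 3 period genes, Per1 rose, Per3 fell and Per2 did not pass. Per1, which encodes the period protein most readily induced by stimuli outside the clock (chromosome 11, 67208291 to 67222989 on the BALB/cJ assembly that the table uses), was at 205.7, 152.5 and 133.6 CPM in I/R replicates 1, 2 and 3 and at 99.4, 94.3 and 102.8 CPM in the sham replicates. Every I/R library lay above every sham library, and I/R replicate 1 was the highest. The rise was 0.73 on the log2 scale with a standard error (SE) of 0.15 (adjusted p by edgeR 0.00728), and without I/R replicate 1 it was 0.53.

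Per3, whose promoter carries the D-boxes shown above and which is the period gene least needed for rhythm in mice (chromosome 4, 149008147 to 149049221), was at 22.3, 23.8 and 30.6 CPM after I/R against 54.9, 50.9 and 58.1 CPM in sham. All I/R libraries lay well below all sham libraries. Per3 fell by 1.09 on the log2 scale (SE 0.13, adjusted p by edgeR 0.000970). On the BALB/cJ assembly its whole span of 41075 bases lies inside that of Camta1 on the same strand, which was at 223.7 ± 73.2 CPM after I/R against 462.5 ± 32.0 CPM in sham (SD, n = 3 each), but in the GENCODE M21 annotation of GRCm38 the genes share 0 exon bases. The part of Camta1 reads in the count of Per3 was not tested.

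Per2, the period protein with the strongest part in the loop (chromosome 1, 89796125 to 89841744), was at 44.4, 43.6 and 44.5 CPM after I/R against 50.9, 53.0 and 50.2 CPM in sham. These groups did not overlap and were tight within themselves, yet the difference was small. Its log2 fold change was -0.22 (SE 0.08, 95% interval -0.40 to -0.04), and the adjusted p of 0.0516 by edgeR missed the threshold. At 1.16-fold lower, Per2 was also short of the fold limit of 1.2. With scaling by library size only its log2 fold change was 0.038, so its direction depends on scaling. Over the alternatives its adjusted p lay between 0.0248 and 0.758, and Per2 was called in none of them.

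Of the cryptochromes, which bind and block CLOCK and BMAL1, Cry1 rose and Cry2 did not pass. Cry1 (chromosome 10, 83356341 to 83410884) was at 35.4, 31.6 and 26.3 CPM after I/R against 16.2, 18.9 and 15.8 CPM in sham. The lowest I/R library was above the highest sham library. Its rise was 0.87 on the log2 scale (SE 0.14, adjusted p by edgeR 0.00235).

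Cry2 (chromosome 2, 90222714 to 90253091) was at 146.0, 163.6 and 155.8 CPM after I/R against 151.4, 154.7 and 159.9 CPM in sham, and the groups overlapped throughout. Its log2 fold change was -0.0017 with a 95% interval of -0.20 to 0.19 (adjusted p by edgeR 0.989). Under library size only it was 0.25 (adjusted p of 0.0258), short of the fold limit, with an adjusted p of 0.0190 to 0.996 over the alternatives. Of its exon bases in GENCODE M21, 4.67% are shared with D930015M05Rik on the other strand, which was at 1.04 ± 0.549 CPM after I/R against 1.14 ± 0.724 CPM in sham.

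Of the activators, Arntl rose modestly and Clock was not called. Arntl (chromosome 7, 113595539 to 113711648) was at 35.1, 38.9 and 34.1 CPM after I/R against 26.1, 28.9 and 28.6 CPM in sham. No I/R library fell within the sham range. Arntl rose by 0.37 on the log2 scale (SE 0.10, adjusted p by edgeR 0.0168), and by 0.63 with library size only. The call did not hold without I/R replicate 2 (adjusted p by edgeR 0.0612), without sham replicate 1 (0.0741) or without sham replicate 3 (0.0540), nor with only the 4 libraries rich in choroid plexus counts (0.10). For Arntl the adjusted p lay between 0.00203 and 0.10 in the alternatives, always with the same direction.

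Clock (chromosome 5, 74206978 to 74302693) was at 115.3, 126.8 and 123.3 CPM after I/R against 116.7, 109.1 and 118.3 CPM in sham, with overlapping groups. Its log2 fold change of 0.09 (SE 0.08, 95% interval -0.10 to 0.27) did not pass (adjusted p by edgeR 0.428). It was called as higher with library size only, at 0.34 (0.00809), and likewise on FPKM, in a range of 0.00809 to 0.720 for its adjusted p. The span of Clock overlaps by 4176 bases a gene on the same strand that has no name in the table and whose values were not used here.

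The REV-ERB receptors are the repressors of Arntl and among the most rhythmic transcripts of the clock. Nr1d1 (chromosome 11, 97620502 to 97627903) was at 73.5, 79.6 and 79.8 CPM after I/R against 79.6, 84.8 and 73.9 CPM in sham. The groups overlapped, and its log2 fold change was -0.03 with a 95% interval of -0.23 to 0.16 (adjusted p by edgeR 0.779). With library size only it was 0.22, so no direction can be given. Nr1d1 lies tail to tail with Thra, the thyroid hormone receptor gene on the other strand, with 1075 bases of overlap in the table and 8.55% of its exon bases shared in GENCODE M21. Thra was lower, at 450.3 ± 98.1 CPM after I/R against 1144 ± 54.4 CPM in sham, and whether the counting used strand is not stated, so the count of Nr1d1 is uncertain.

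Nr1d2 (chromosome 14, 10557350 to 10601269) was at 46.9, 63.2 and 63.3 CPM after I/R against 83.2, 75.7 and 71.6 CPM in sham. All I/R libraries lay below sham, with replicate 1 the lowest. It fell by 0.41 on the log2 scale (SE 0.13, adjusted p by edgeR 0.0361). The call depended on the scaling and was lost with any 1 sham library left out. It did not hold without sham replicate 1 (adjusted p by edgeR 0.126), 2 (0.0944) or 3 (0.0664), with the 4 libraries rich in choroid plexus counts (0.105), or with library size only, where the log2 fold change was -0.16 (0.269). Without sham replicate 1, 2 or 3 its log2 fold change was -0.35, -0.42 and -0.46. Calls among all genes were then also fewer, at 30.1%, 28.6% and 29.1% beside 41.8%. The call held without I/R replicate 1 (0.00736), 2 (0.0462) or 3 (0.0330). Over the alternatives the adjusted p lay between 0.00736 and 0.308, and the direction was the same in each.

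Dbp fell by nearly the same amount as Per3. It encodes the D-box activator that the loop drives directly (chromosome 7, 45095806 to 45100873) and was at 18.5, 20.8 and 23.2 CPM after I/R against 45.1, 47.9 and 42.0 CPM in sham. The sham libraries stood well above the I/R libraries in each case. Dbp fell by 1.11 on the log2 scale (SE 0.11, adjusted p by edgeR 0.000554), a level 2.16-fold lower, and it was called as lower in each of 18 alternatives. Its last 689 bases overlap Sphk2 on the other strand, with 18.0% of its exon bases shared in GENCODE M21, and Sphk2 did not pass at a log2 fold change of 0.05 (SE 0.09, adjusted p by edgeR 0.724). Sphk2 was at 36.0 ± 1.38 CPM after I/R against 34.9 ± 2.69 CPM in sham. Since strand use in counting is not stated, the count of Dbp is uncertain as well, and the part of Sphk2 reads in it was not tested.

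The relatives of Dbp were in a list of other clock genes. Tef and Hlf, which encode the other activators of the D-box, both fell. Tef was at 180.8, 235.4 and 281.5 CPM after I/R against 472.8, 469.5 and 458.9 CPM in sham. Its fall was a log2 fold change of -1.01 (SE 0.16, adjusted p by edgeR 0.00248). Hlf was at 37.5, 65.9 and 79.4 CPM after I/R against 195.2, 183.3 and 187.4 CPM in sham, the largest fall of any clock gene examined, at -1.63 (SE 0.24, adjusted p by edgeR 0.00182). For both genes I/R replicate 1 was the lowest library. Nfil3, which encodes the repressor that competes for the D-box and is also a regulator in immune cells, moved the other way, from 6.17, 6.87 and 7.35 CPM in sham to 52.8, 31.9 and 32.3 CPM in I/R. It rose by 2.52 on the log2 scale (SE 0.22, adjusted p by edgeR 0.000345), and its lowest I/R library was well above its highest sham library. Dbp, Tef and Hlf were called as lower and Nfil3 as higher in each of 18 alternatives, where 41.8% of all genes were called by the main fit. The neuronal markers given above moved in the direction of Dbp, Tef and Hlf, with a median log2 fold change of -1.14, and the markers of blood myeloid cells in that of Nfil3, with a median of 3.53. Other marker lists also had medians below 0 (dentate granule cells -1.94, choroid plexus -0.97, astrocytes -0.458, oligodendrocytes -0.392) or above 0 (endothelium 0.724, microglia 0.359). The part of any of these cell types in these changes was not tested.

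**Figure D2:**
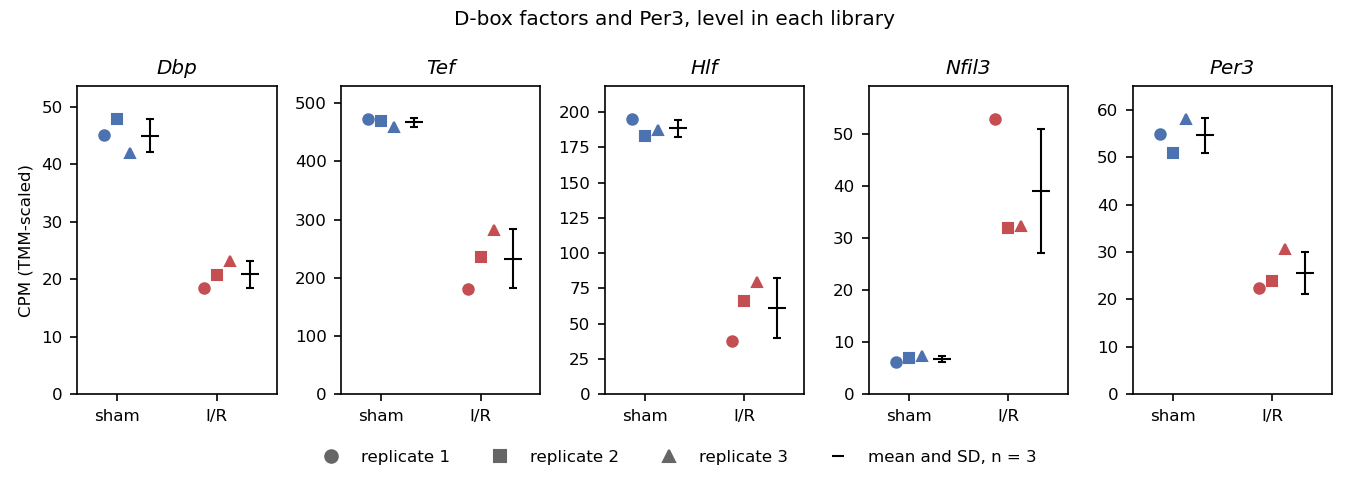
Level of the D-box factors and of Per3 in each library. The vertical axis is CPM scaled by TMM and starts at 0, symbols mark replicates, and bars are the mean with SD (n = 3). The activators Dbp, Tef and Hlf and the gene Per3 were lower in every I/R library than in any sham library, and the repressor Nfil3 was higher.

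Within a library, the ratio of a pair of genes does not depend on how libraries are scaled. The count of Per1 was 9.21, 6.41 and 4.36 times that of Per3 after I/R against 1.81, 1.85 and 1.77 times in sham. The sham ratio was nearly constant, and each I/R library exceeded it by a different amount. Per1 over Per2 went from 1.93 ± 0.136 in sham to 3.71 ± 0.837 in I/R, and Per2 over Per3 from 0.944 ± 0.0898 to 1.76 ± 0.274 (SD, n = 3 each). For Cry1 over Cry2 the ratio was 0.243, 0.193 and 0.169 after I/R against 0.107, 0.122 and 0.0985 in sham. The smaller shifts were those of Arntl over Clock, at 0.296 ± 0.0168 in I/R and 0.243 ± 0.0206 in sham, and of Nr1d1 over Nr1d2, at 1.36 ± 0.179 and 1.04 ± 0.0821. The I/R and sham libraries did not overlap in any of these 6 ratios. Each was written with the gene of the higher log2 fold change on top, so its direction follows from the values given above. Of all single genes tested 57.4% did not overlap, and the share over other pairs of genes was not computed. Across the arms of the loop, Arntl over Dbp was 1.90, 1.87 and 1.47 after I/R against 0.577, 0.603 and 0.681 in sham. Cry1 over Dbp was 1.91, 1.52 and 1.13 after I/R, with 0.359, 0.395 and 0.375 for the sham libraries. Nfil3 over Dbp, repressor over activator of the D-box, was 2.85, 1.54 and 1.39 after I/R, with 0.137, 0.143 and 0.175 for the sham libraries, and the I/R mean was 12.7 times the sham mean. These ratios were computed after the values of the genes were known and are given without a test.

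**Figure D3:**
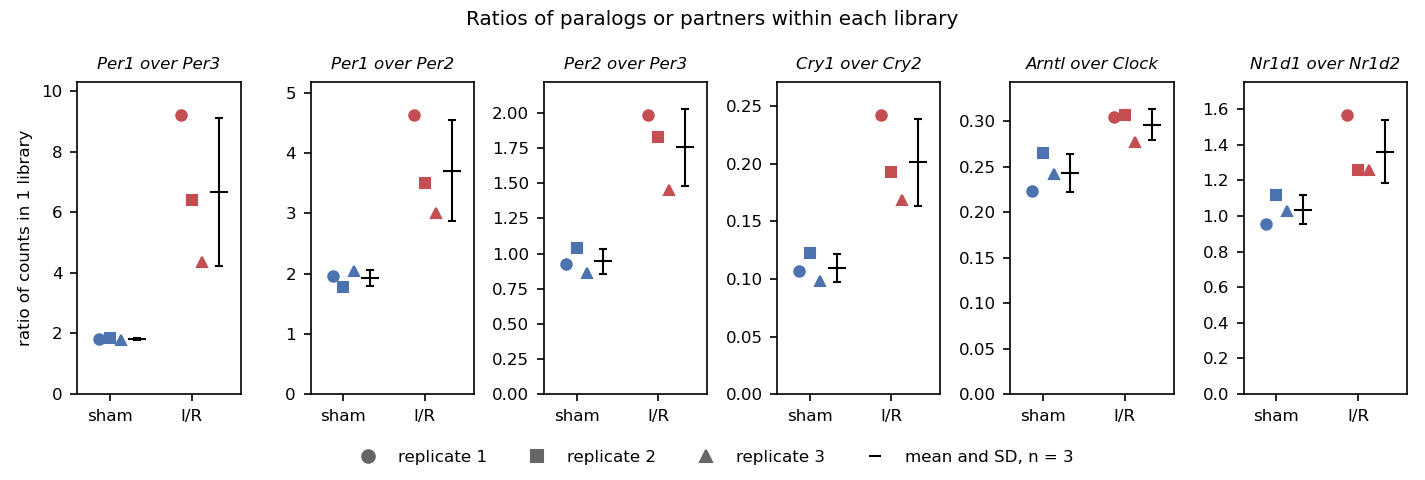
Ratios of the counts of 2 clock genes within each library. The vertical axis of each panel is a ratio without unit and starts at 0, symbols mark replicates, and bars are the mean with SD (n = 3). In every panel the 3 I/R libraries lie above the 3 sham libraries, for example at 4.36 to 9.21 against 1.77 to 1.85 for Per1 over Per3. Each ratio has the gene of the higher log2 fold change on top, and the share over other pairs of genes was not computed.

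Levels of different genes were compared per length, with the FPKM that the authors deposited. In sham the order from high to low was Cry2 at 66.5 ± 1.88 FPKM, Nr1d1 at 41.5 ± 2.64, Dbp at 34.0 ± 2.04, Per1 at 26.1 ± 1.29, Clock at 21.4 ± 1.06, Per2 at 15.5 ± 0.329, Nr1d2 at 14.7 ± 1.17, Per3 at 11.9 ± 0.861, Arntl at 8.77 ± 0.450 and Cry1 at 5.15 ± 0.482 FPKM (SD, n = 3). Neighbours in this order did not overlap, except Per2 and Nr1d2. After I/R the order was Cry2, Per1, Nr1d1, Clock, Dbp, Per2, Arntl, Nr1d2, Cry1 and Per3. Per1 at 51.9 ± 14.4 FPKM overlapped Nr1d1 at 48.4 ± 0.0341 FPKM, and Arntl, Nr1d2 and Cry1 overlapped their neighbours. Per1 thus moved from place 4 to place 2, Dbp from 3 to 5 and Per3 from 8 to 10, whereas Cry2 was first in both groups. With the length listed in the table the moves of Per1 and Per3 were the same, and Dbp went from 3 to 7. FPKM carries no TMM factor, so levels in I/R are relatively higher on this scale than in CPM. The gene length behind the FPKM was shorter than the length listed in the table for some of these genes, and with the listed length Per2 ranked 9 in both groups rather than 6, and the places of Clock, Nr1d2 and Arntl in sham and of Dbp, Arntl, Nr1d2 and Cry1 in I/R also changed.

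**Figure D4:**
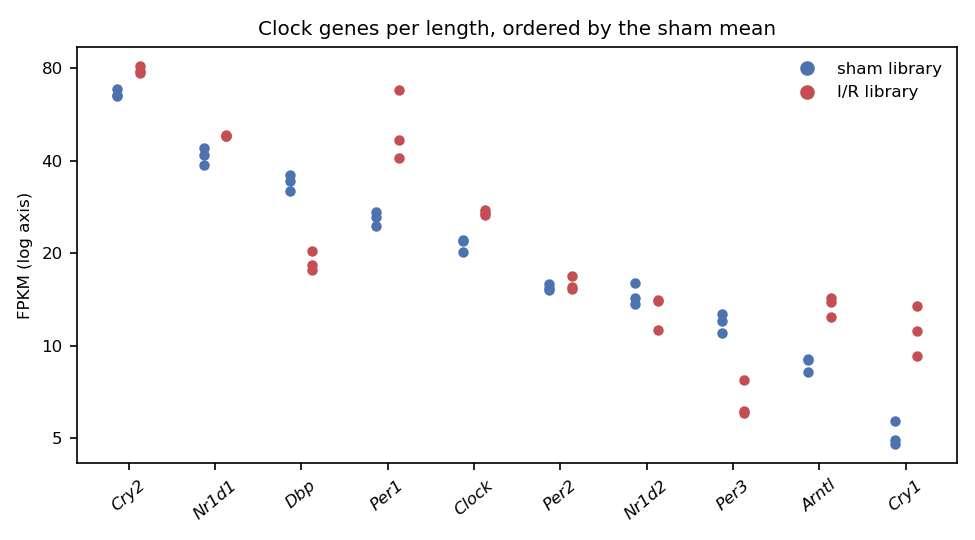
FPKM of the clock genes in each library, on a log axis, with genes ordered by their sham mean. Each point is 1 library, blue for sham and red for I/R. Cry2 is the highest in both groups by its mean (65.1 to 68.6 FPKM in sham and 77.3 to 81.5 in I/R), the I/R points of Dbp and Per3 lie below their sham points, and those of Per1, Arntl and Cry1 lie well above theirs. On this scale, which carries no TMM factor, the I/R points of Cry2, Clock and Nr1d1 also lie above their sham points. Those of Per2 and Nr1d2 overlap their sham points.

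The rest of the pathway was followed in 25 other clock genes, all tested, of which 5 rose and 5 fell. That is 10 of 25 beside 41.8% of all genes, with a median log2 fold change of -0.04. None of the 5 genes in the group of activator partners and ROR receptors was called. Npas2, which can stand in for Clock in the forebrain, was at 17.1, 16.2 and 21.0 CPM after I/R against 22.2, 22.7 and 21.7 CPM in sham, which gave -0.30 on the log2 scale (SE 0.12, adjusted p by edgeR 0.0852). Without I/R replicate 3 it was called, at -0.43 (0.0208, with 0.0208 to 0.788 over the alternatives). The activating receptor genes Rora and Rorb stood at -0.10 (SE 0.08) and 0.26 (SE 0.15) on the log2 scale, and Rora was at 0.15 with library size only. By edgeR their adjusted p were 0.381 and 0.214, and Rorb was called as higher with library size only, at 0.51 (0.0343, with 0.0343 to 0.498 over the alternatives).

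Among the accessory repressors, Nfil3, Timeless and Ciart rose. Timeless, which in mammals is known mainly for its part in DNA replication, was at 15.1, 8.73 and 7.48 CPM after I/R against 4.10, 4.11 and 2.94 CPM in sham, which gave 1.49 on the log2 scale (SE 0.29, adjusted p by edgeR 0.00531). Ciart, a repressor of CLOCK and BMAL1 whose promoter window held 3 E-boxes, was at 14.5, 16.0 and 17.0 CPM after I/R against 12.1, 12.7 and 12.2 CPM in sham. It rose by 0.36 (SE 0.11, adjusted p by edgeR 0.0336), but the call did not hold without any of sham replicates 1, 2 and 3 (0.104, 0.0772 and 0.105) or I/R replicates 2 and 3 (0.0897 and 0.0964), nor without a count filter (0.0929), with the choroid plexus covariate (0.0526) or with the 4 libraries rich in choroid plexus counts (0.236), and over the alternatives the adjusted p ran from 0.00154 to 0.236. The E-box repressors Bhlhe40 and Bhlhe41 did not pass, at -0.09 (SE 0.08, adjusted p by edgeR 0.419) and 0.14 (SE 0.17, adjusted p by edgeR 0.540). Bhlhe40 was at 0.17 with library size only. Bhlhe41 depended on the libraries, at 0.30 and called without I/R replicate 1 (0.0292) and at -0.045 without I/R replicate 2 (0.838), and these adjusted p are the ends of its range over the alternatives.

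Of 8 genes for kinases, ubiquitin ligase parts and a deubiquitinase that act on clock proteins, 2 fell and 6 did not pass. Btrc, which encodes the ligase subunit that marks PER proteins for degradation, was at 87.1, 97.0 and 107.5 CPM after I/R against 158.8, 167.3 and 158.8 CPM in sham, which gave -0.73 on the log2 scale (SE 0.10, adjusted p by edgeR 0.00129). Usp2, a rhythmic deubiquitinase, fell by 0.35 (SE 0.10, adjusted p by edgeR 0.0241), with 59.6 to 71.99 CPM after I/R against 76.7 to 87.3 CPM in sham. That call did not hold without I/R replicate 2 (0.0745), sham replicate 1 (0.0930) or sham replicate 3 (0.0885), with the 4 libraries rich in choroid plexus counts (0.0635), or with library size only, where it was -0.09 (0.428), in a range of 0.00965 to 0.428. The other 6, among them the casein kinase genes Csnk1d and Csnk1e, had log2 fold changes between -0.29 and 0.08, and Csnk1e, Fbxl21 and Fbxw11 changed sign with library size only. Of the 5 output genes, Tspan4, a tetraspanin, rose by 1.51 (SE 0.16) and Sirt1, a deacetylase, by 0.60 (SE 0.11), while the mitotic kinase gene Wee1 fell by 0.77 (SE 0.16), with adjusted p by edgeR 0.000673, 0.00475 and 0.00740. Wee1 was at 7.78, 11.1 and 10.9 CPM after I/R against 16.2, 18.6 and 16.1 CPM in sham. Nampt and Cirbp did not pass, at 0.05 (SE 0.12) and -0.04 (SE 0.09), and Cirbp was at 0.22 with library size only.

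**Figure D5:**
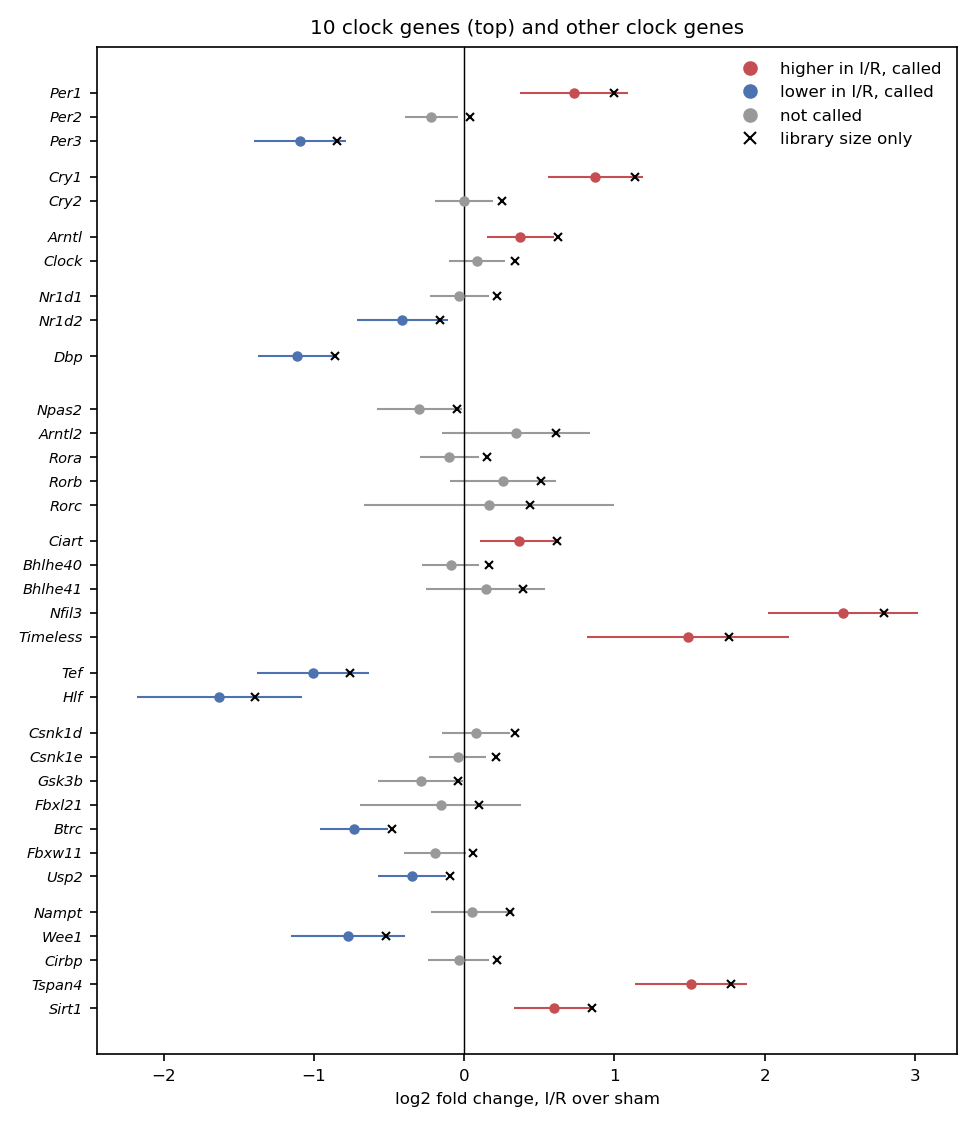
Log2 fold change of the 10 clock genes (top) and of other clock genes, I/R over sham, with TMM scaling. Points are fitted values with 95% intervals, red for genes called as higher, blue for genes called as lower and grey for genes not called, and crosses are the values with library size only. Dbp, Per3, Tef and Hlf lie left of 0 on both scalings and Nfil3 far to the right, whereas Per2, Cry2, Nr1d1, Rora, Bhlhe40, Csnk1e, Fbxl21, Fbxw11 and Cirbp, none of them called, have their crosses on the other side of 0.

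The I/R libraries differed among themselves in the extent of these changes. Of the 6 clock genes called, I/R replicate 1 lay farthest from the sham mean (log2 CPM, in the direction of the change) in 5 and replicate 2 in 1, and replicate 3 lay nearest in all 6, as it did in 4666 of all 7756 genes called. For Nr1d2 replicates 2 and 3 were all but equal, at 63.24 and 63.32 CPM. Over the 16 clock genes called with both lists, replicate 1 was farthest in 13 and replicate 3 nearest in 12. Among all genes called, replicate 1 was farthest in 75.3%. The coefficient of variation over the 3 libraries was 22.8% in I/R for Per1, 17.3% for Per3 and 16.4% for Nr1d2, and it was 1.18% for Per2. I/R replicate 1 also had the lowest neuronal marker sum, at 1855 CPM, and the highest sum of blood myeloid markers, at 54.2 CPM against 15.8 and 24.2 CPM in the other I/R libraries and 3.87 to 5.17 CPM in sham. The part of these differences in the clock values was not tested. With the level of the choroid plexus list as a covariate all 6 genes were called again, beside 39.4% of all genes, with log2 fold changes of 0.73 for Per1, 0.88 for Cry1, 0.38 for Arntl, -1.12 for Per3, -0.42 for Nr1d2 and -1.12 for Dbp.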

How the data were processed

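Per the study's methods, the authors aligned reads with TopHat2 to an Ensembl genome and counted them per gene with HTSeq 0.6.1p2. The submitters' processing notes name Bowtie 0.12.2 and mm8, whereas the gene identifiers and coordinates are those of the BALB/cJ annotation, and that assembly was used as given. The deposited raw counts were used for the tests. FPKM, deposited by the authors, were used for levels between genes and as an alternative. Among 12520 genes with at least 100 counts in every library, the length behind the FPKM was the same in all libraries but differed from the listed length by over 1% in 9289. The authors' own fold change, p-value and group columns were not used. In the table, 4 split lines were rejoined.

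Genes were kept by filterByExpr (18569 of 41386) and tested with edgeR 4.0.16 in R 4.3.3 (TMM, glmQLFit with robust estimation, glmQLFTest, no covariates, Benjamini-Hochberg over all genes tested). The SE is the log2 fold change divided by the square root of F, and intervals use the moderated degrees of freedom. The fit was tested on simulated counts. Nothing in the labels says that libraries came from separate cohorts, so p-values measure the spread between these pools. Alternatives were other scalings (library size only, DESeq2 size factors, upper quartile), count filters, DESeq2 1.42.0, limma-voom (limma 3.58.1), limma on log2(FPKM + 1) and log2(FPKM + 0.1), each library left out, a replicate block, a choroid plexus covariate and the 4 libraries rich in choroid plexus counts.

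The 10 genes, the lists and the alternatives were chosen with earlier results of these data known. All 10 are named, together with 9 preset genes of the other clock list and the 6 largest changes called among the rest. The few others named from that list were chosen after their values were seen, and 1 gene of it is counted but not reported here. Marker lists were Rbfox3, Tubb3, Snap25, Syt1, Slc17a7 and Gad1 (neurons), Prox1, Dsp, Tdo2 and C1ql2 (dentate granule cells) and similar lists for glia, endothelium, choroid plexus and blood myeloid cells, from which Ly6c2 was not found by name. Of the 7 choroid plexus markers 1, Sostdc1, was called, as lower.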

Additional observations from a re-analysis of the deposited data

How the results depend on the processing

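The count of clock genes called was 6, and 4 to 6 when 1 library was left out, 5 with the replicate block and 4 with only the libraries rich in choroid plexus counts. The other clock genes called were 10, 8 to 11 with 1 library left out and 8 to 12 over all alternatives. Per1, Per3, Cry1, Dbp, Nfil3, Tef, Hlf, Tspan4, Timeless, Wee1, Btrc and Sirt1 kept direction and call in each of 18 alternatives. Over all genes 52.3% of the calls were higher with TMM and 75.8% with library size only, which moved the median log2 fold change of all genes from 0.03 to 0.28. Log2 fold changes near 0 changed sign with it: Per2 from -0.22 to 0.038 (0.035 and 0.036 on FPKM plus 1 and plus 0.1), Rora from -0.10 to 0.15 (0.14 or 0.15 on FPKM), Bhlhe40 from -0.09 to 0.17 (0.16 and 0.17) and Nr1d1 from -0.03 to 0.22 (0.22 on both). Nr1d1 was also at 0.0018 without I/R replicate 1 and from -0.083 to 0.017 over the fits that leave out 1 library, the ends being those lacking sham replicate 3 and sham replicate 2. Cry2, at -0.0017, was at 0.25 with library size only and on FPKM, 0.024 with the upper quartile, 0.025 with at least 10 counts in every library, 0.00085 with the choroid plexus covariate, and between -0.044 (without I/R replicate 2) and 0.037 (without I/R replicate 1) with 1 library left out. Bhlhe41 was at 0.14, and between -0.045 (without I/R replicate 2) and 0.30 (without I/R replicate 1) with 1 library left out.

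Replicate numbers are shared by the groups, but the deviations of same-numbered libraries from their group means correlated at -0.10, 0.06 and -0.18, so the numbers were not taken as pairs. With the replicate number as a block 6332 genes (34.1%) were called instead of 7756, among them 5 of the clock genes, and Nr1d2 did not pass (edgeR adjusted p of 0.0702), nor did Ciart (0.0882) and Usp2 (0.0518) among the other clock genes. The effect of depth was not tested. With any 1 sham library left out Nr1d2 and Ciart were no longer called, and without sham replicate 1 or 3 neither were Arntl and Usp2.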
